A study of Mus musculus with 9 samples.

Results

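Retinas whose labels give a knock-in at Neurog2 were compared with retinas labelled as Neurog2 mutants, over every gene symbol in the deposited table of that contrast. The values of a gene's listed transcripts were summed in each group, and a gene was kept at a sum of 1 RPKM or more in either group. RPKM divides reads by transcript length and by sequencing yield, so levels can be set side by side between genes. This kept 11989 genes, all that carry a symbol in the table, of 12388 with a symbol anywhere in the series. The table itself already lists no transcript below 1.04 RPKM in its higher group, so the limit of 1 RPKM removed none. Of the 26586 transcripts, 26414 carry a symbol, 117 carry none and 55 carry a date in its place.

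All groups were CD-1 mouse embryos at E12.5, with 3 samples each. The mutant label is Neurog2GFP/GFP, with GFP at both Neurog2 alleles, and the knock-in label gives GFP at one allele and a knock-in at the other. Neither group has an intact Neurog2 allele by its label, and GFP is in both. The heterozygote label, Neurog2GFP/+, is used here only for levels from a second table, which was normalized separately and shares the mutant samples. Optic cup pairs picked by GFP were taken apart with an enzyme before RNA extraction, no cell sort is named, and litters are not labelled. The tests therefore measure the spread between these samples, which may be technical.

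Each group has one pooled value per transcript, so no sample can be shown singly, no SD can be given, and the depth behind a value is unknown. A gene is called changed where a transcript has q of 0.05 or less in the authors' deposited table, made with Cuffdiff. A p or q given for a gene is that of its transcript with the smallest p, unless another transcript is named. The levels beside it are sums over transcripts, which were not tested. The smallest q there is 0.0104, which 128 transcripts share, and called genes had q from that value up to 0.05. The sample titles begin with 466 in the heterozygote and mutant groups and with 311 in the knock-in group. Whatever that number marks, it and the knock-in label cannot be told apart.

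Neurog2 is a proneural basic helix-loop-helix (bHLH) factor. Such factors bind short E-box motifs as dimers with E proteins, turn on neuronal genes and Notch ligands, and through Notch hold neighbouring cells as progenitors. In the embryonic retina Neurog2 works in progenitors upstream of, and together with, Atoh7, the factor that retinal ganglion cells need to form. Hes genes are repressors that carry the Notch signal, with Rbpj as its DNA-binding partner.

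The spread of all genes was narrow. The median log2 ratio of knock-in to mutant was -0.00, with quartiles of -0.20 and 0.21, and 95.4% of genes were within 2-fold. Genes of 1 to 5 RPKM spread most, with an interquartile range of 0.63 on the log2 scale, against 0.37 for genes of 5 to 20 RPKM and 0.36 for those of 20 to 100 RPKM. Called genes were 124 higher and 76 lower in knock-in-labelled retinas, which are 1.03% and 0.634% of those tested and together 1.67%. By transcript, 0.47% were called higher and 0.286% lower, and 4.03% and 2.97% had an unadjusted p under 0.05. Summed values were 2-fold or more higher in 2.73% of genes and 2-fold or more lower in 2.35%. Of all genes, 49.7% had a higher summed value in knock-in-labelled retinas and 50.3% a lower one.

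Calls were unevenly placed among the gene classes. The lists were chosen with earlier results of these data known, so this unevenness is a description and not a test. Of 59 listed genes of tissues around the retina (pigment epithelium, lens, mesenchyme, vessels, blood, macrophages, ectoderm), 15 were called higher and none lower. Of the 59, 19 reached 1 RPKM only through the knock-in value and so had to be higher. Of the other 40, 32 were higher and 11 were called higher, with a median log2 ratio of 0.93. Of 33 immediate early and heat shock genes, 2 were called higher and 11 lower. Of these 33, 7 reached 1 RPKM only through the mutant value and so had to be lower. Among the other 26, 2 were called higher and 7 lower. Of 160 retinal neuron genes, 9 were called higher (5.62%) and 1 lower (0.625%), and 111 had a higher summed value. The 9 include Neurog2, the manipulated locus, whose level cannot be read as a response of neurons. Of 172 progenitor and signalling genes, 3 and 2 were called. The median log2 ratio was 0.22 for the neuron genes and 0.03 for the progenitor and signalling genes, beside -0.01 for the 11308 genes in no list. Among the 154 neuron genes that reached 1 RPKM in mutant-labelled retinas, 105 were higher, with a median of 0.21.

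**Figure D1:**
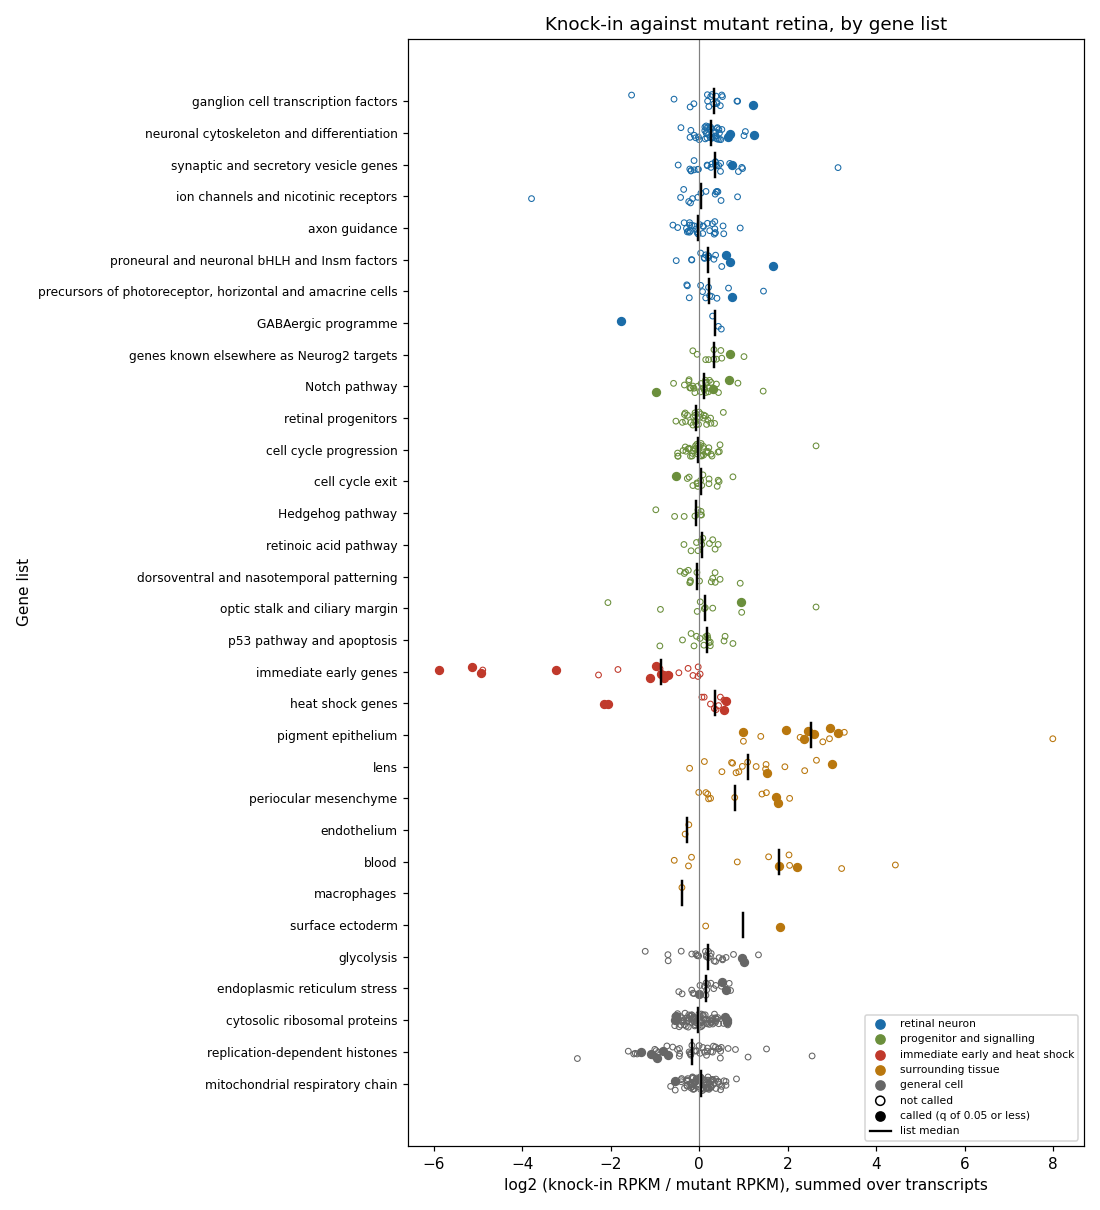
Log2 ratio of knock-in to mutant RPKM (x axis, summed over transcripts) for each gene, by gene list (y axis), coloured by class. Filled points are called genes, open points are not, and black bars are list medians. Foxe3, listed at 0 in the mutant group, and the sex-linked genes are not drawn. The ganglion cell factor list has its median at 0.33, immediate early genes at -0.87 and pigment epithelium at 2.53, the last over members that include 7 listed only through their knock-in value.

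The labelled tissue showed its defining genes in both groups. The progenitor homeobox gene Six6 was at 96.6 RPKM in mutant-labelled and 103.8 RPKM in knock-in-labelled retinas, and the secreted Wnt modulator Sfrp2 at 1279 and 1222 RPKM. The forebrain markers Emx1, Emx2, Tbr1 and Nkx2-1 were not listed. The mixed dissection still held other tissue. The summed level of the 14 listed pigment epithelium genes was 28.7 RPKM in mutant-labelled and 126.6 RPKM in knock-in-labelled retinas, and that of the 18 listed lens genes was 73.0 and 201.3 RPKM. In such bulk RNA, fewer cells of a type and less RNA per cell cannot be told apart. The part that tissue makeup plays in the neuronal values below was not tested.

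The manipulated locus was looked at before all others. Neurog2 (mm10 chr3:127633135-127635631) was at 35.5 RPKM in mutant-labelled and 112 RPKM in knock-in-labelled retinas, a rise of 1.66 on the log2 scale. Its one listed row does not show which part of the locus the reads came from, and both labels lack an intact allele, so its level does not check the genotypes. The groups are called by their labels throughout.

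Among the ganglion cell transcription factors, Pou4f2 alone was called and most others were higher without passing. Of 30 in the list 19 were listed, 15 of them higher in knock-in-labelled retinas. Pou4f2 (Brn3b, mm10 chr8:78433010-78436645), a POU factor that ganglion cells need to mature, rose 2.32-fold, from 30.5 to 70.9 RPKM, with 53.1 RPKM in the heterozygote of the other table. Atoh7 was at 145 and 206 RPKM, a log2 difference of 0.51 (the authors' deposited table gave p = 0.0009 and q = 0.0843), with 195 RPKM in the heterozygote. For both genes the knock-in value was above the heterozygote's, across tables normalized separately.

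Most other ganglion cell factors lay between the mutant and the heterozygote level. Irx2, an Iroquois homeobox gene, was at 15.02 and 27.4 RPKM (heterozygote 38.5), and Ebf1, of the Ebf helix-loop-helix family, at 12.9 and 23.2 RPKM (heterozygote 32.2). Barhl2, a homeobox gene used by ganglion and amacrine cells, was at 4.97 and 7.14 RPKM (heterozygote 10.6). Pou4f1, the Brn3a relative of Pou4f2, was at 5.67 and 7.87 RPKM (heterozygote 14.4). Isl1, the LIM homeobox partner of Pou4f2, was at 42.5 and 48.3 RPKM (heterozygote 69.1), a log2 difference of 0.19. These did not pass the test, and the heterozygote values come from the other normalization. Isl1 and Pou4f2 act together on ganglion cell genes, but their log2 ratios were unequal, 0.19 and 1.21.

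The remaining members ranged downward to Dpf1, a chromatin factor gene of neurons, which was at 4.05 and 1.40 RPKM with 3 listed transcripts and did not pass. Dpf3, Ebf4 and Lmo4 were the other members with lower values. Sox4 and Sox11, SoxC factors of new neurons, were at 5.69 and 7.50 RPKM and at 145 and 177 RPKM. Pou4f3, Isl2, Irx1, Irx3, Irx4, Irx5, Irx6, Eomes, Tbr1, Myt1l and Gfi1 were not listed. The list of 15 genes known elsewhere as Neurog2 targets had 11 listed members, of which 9 were higher and Neurod4 alone was called. Their median was 0.33 on the log2 scale.

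**Figure D2:**
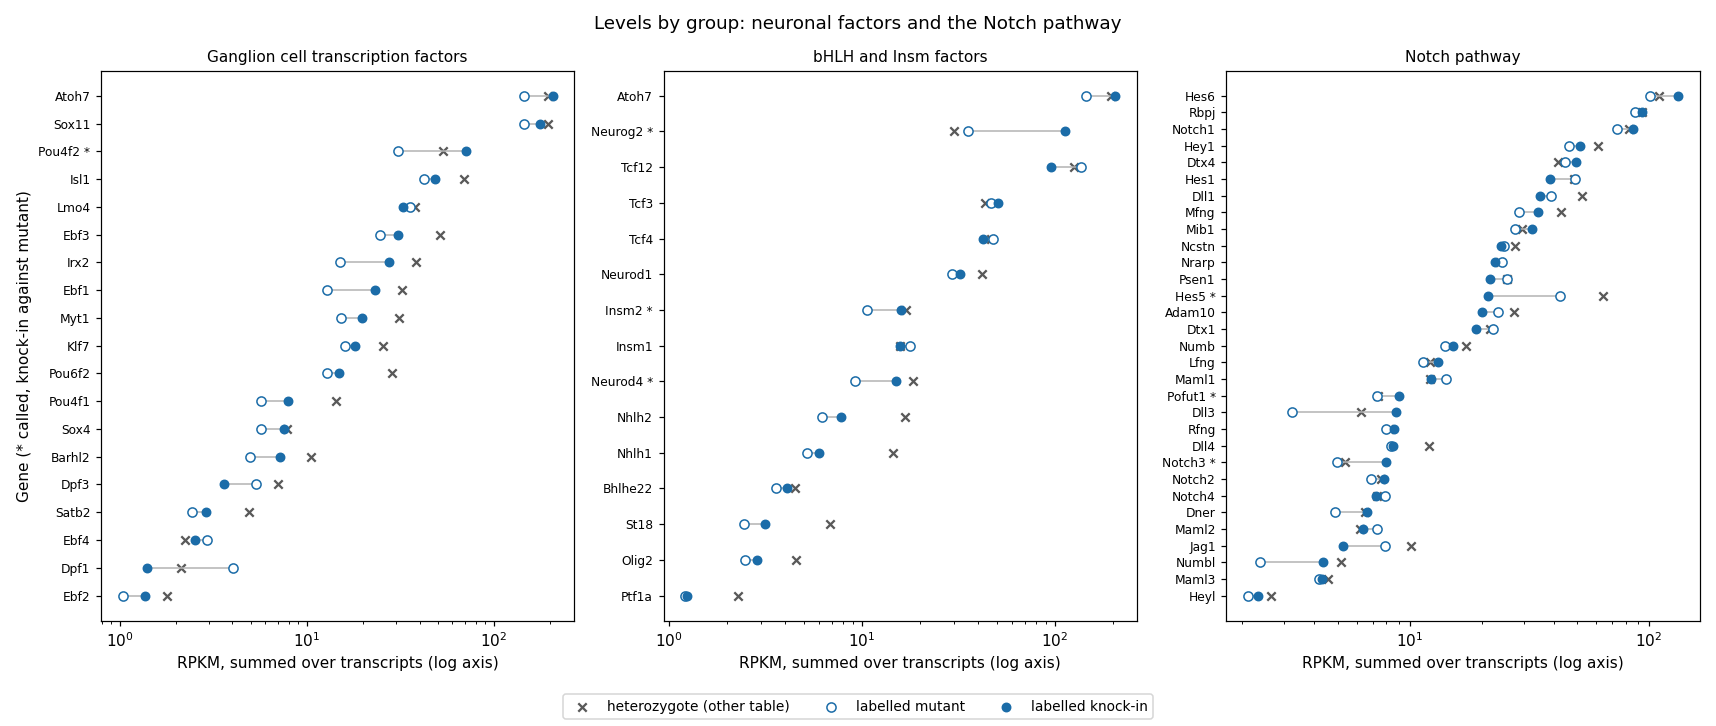
Summed RPKM (x axis, log scale) of ganglion cell transcription factors, bHLH and Insm factors, and Notch pathway genes (y axes) in the mutant (open), knock-in (filled) and heterozygote (cross) groups. A line joins the groups compared, a star marks a called gene, and heterozygote values come from the separately normalized table. Not every bHLH gene is drawn. Pou4f2 went from 30.5 to 70.9 RPKM and Hes5 from 42.3 to 21.3 RPKM.

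Genes of neuronal form and maintenance were mostly higher. Of 44 genes of neuronal cytoskeleton and differentiation 40 were listed, 33 were higher and 3 were called. Rbpms, an RNA-binding protein used as a ganglion cell marker, rose from 10.1 to 23.7 RPKM over 6 transcripts, a log2 ratio of 1.23. Nova2, a neuronal splicing factor, rose from 6.13 to 9.86 RPKM. Nsg2, a neuronal endosomal protein, rose from 7.49 to 11.8 RPKM (the authors' deposited table gave q = 0.0363). These increases ranged from 0.66 to 1.23 on the log2 scale.

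Several widely used neuronal markers were close to the threshold or below it. Elavl3, a neuronal RNA-binding protein, was at 16.7 and 23.5 RPKM (the authors' deposited table gave p = 0.00075 and q = 0.0767). The growth cone proteins Stmn2 and Gap43 were at 127 and 150 RPKM and at 46.5 and 59.7 RPKM. The neurofilaments Nefl and Nefm were at 14.4 and 19.8 RPKM and at 48.9 and 63.2 RPKM. The microtubule protein Mapt, at 2.71 and 2.70 RPKM, did not share that direction, nor did Kif5a, Stmn4 and Celf4. Dcx and Elavl2 had larger ratios, 1.01 and 1.04 on the log2 scale, but their reads were split over 6 and 5 assembled transcripts that went both ways. The largest Dcx transcripts were at 8.40 and 5.07 RPKM and at 2.13 and 12.4 RPKM, and neither gene passed. Nefh, Tubb3, Thy1 and Chl1 were not listed.

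Synaptic and secretory genes were low at this age. Of 30, 25 were listed, 17 were higher and Rab3c alone was called. Rab3c, a small GTPase of synaptic vesicles, rose from 1.32 to 2.21 RPKM (the authors' deposited table gave q = 0.0254). Snap25, a membrane fusion protein, was at 20.9 and 23.5 RPKM, and the vesicle calcium sensor gene Syt1 at 14.1 and 13.8 RPKM. Nrxn2 had the largest ratio, from 0.201 to 1.77 RPKM, and did not pass (the authors' deposited table gave p = 0.176). It was listed only through its knock-in value and so had to be higher. Of the 23 members that reached 1 RPKM in mutant-labelled retinas, 15 were higher.

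No ion channel or axon guidance gene was called, of 15 and 31 listed, beside 1.67% called over all genes. At that share such short lists would hold few calls or none. The nicotinic receptor genes were alike in direction. Chrna3 was at 63.1 and 80.9 RPKM (heterozygote 112.9), Chrna4 at 40.6 and 54.3 RPKM (heterozygote 67.4), Chrnb4 at 24.6 and 32.0 RPKM and Chrna5 at 1.31 and 2.39 RPKM. Their p-values in the authors' deposited table were 0.0107, 0.00245, 0.00915 and 0.00225, and no q was at 0.05 or less. The sodium channel gene Scn8a went the other way, from 1.56 to 0.112 RPKM, without passing. It was listed only through its mutant value and so had to be lower. Among guidance genes the Slit receptor Robo1 was closest to a call, at 6.94 and 10.1 RPKM (the authors' deposited table gave p = 0.0004), while the semaphorin Sema3f was at 32.5 and 21.5 RPKM. The netrin receptor Dcc, which guides ganglion cell axons out of the eye, was at 32.0 and 37.7 RPKM. The list medians were 0.04 and -0.03 on the log2 scale, and that of ion channels was 0.38 over members of 5 RPKM or more.

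The proneural cascade held 3 calls among 16 listed bHLH and Insm factors, all higher. Besides Neurog2 these were Neurod4, a bHLH factor downstream of proneural genes, from 9.26 to 15.1 RPKM (heterozygote 18.3), and Insm2, a zinc finger factor, from 10.6 to 16.0 RPKM (heterozygote 16.8). Their log2 ratios were 0.70 and 0.60, and the q of Insm2 was 0.0363 in the authors' deposited table. The other listed members were not called. Nhlh1 was at 5.16 and 5.97 RPKM (heterozygote 14.5), Neurod1 at 29.3 and 32.4 RPKM, and Insm1 at 17.7 and 15.7 RPKM. The E protein gene Tcf12, whose product pairs with proneural factors, was at 138 and 95.7 RPKM over 8 transcripts and did not pass. Neurog1, Neurog3, Neurod2, Neurod6 and Bhlhe23 were not listed.

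In the Notch pathway the target Hes5 was called lower and the receptor gene Notch3 higher. Hes5 (mm10 chr4:154960770-154962371) fell 1.99-fold, from 42.3 to 21.3 RPKM, with 64.1 RPKM in the heterozygote and 43.1 RPKM for the mutant in that table. Dll3, a ligand-like protein that acts inside the cell, was at 3.22 and 8.76 RPKM, the largest ratio of the list (1.44 on the log2 scale), but did not pass (the authors' deposited table gave p = 0.0037 and q = 0.204). Notch3 rose from 4.96 to 7.93 RPKM. Of 34 genes 31 were listed, 19 were higher, 2 were called higher and 1 lower, with a median of 0.11.

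The signal-sending ligand Dll1, at 38.9 and 35.1 RPKM, and Notch1, at 73.5 and 85.8 RPKM, differed little. The other Hes and Hey genes did not follow Hes5 as a group. Hes1 was at 48.9 and 38.7 RPKM, Hey1 at 46.4 and 51.2 RPKM, and Hes6, which opposes Hes1 and marks new neurons, at 101 and 132 RPKM; none passed. Pofut1, which adds fucose to Notch, was called through a transcript at 0.663 and 6.40 RPKM beside another at 5.00 and 0.0342 RPKM, so that its summed level was 7.28 and 9.03 RPKM.

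The start regions of Pou4f2, Dll3 and Hes5 are shown because they belong to the called ganglion cell factor and to the Notch genes with the highest and the lowest ratio. They are the 250 bases before the RefSeq start site on GRCm38.p6, the assembly also called mm10, printed 5′ to 3′ on the gene's strand. Pou4f2 is at chr8:78436648-78436897 (minus strand), Dll3 at chr7:28301786-28302035 (minus strand) and Hes5 at chr4:154960673-154960922 (plus strand). The authors' Hes5 locus begins inside its window. Capitals mark the E-boxes CAGCTG and CAGATG in the Pou4f2 and Dll3 windows, and the Rbpj core TGGGAA or its reverse complement in the Hes5 window.

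Pou4f2: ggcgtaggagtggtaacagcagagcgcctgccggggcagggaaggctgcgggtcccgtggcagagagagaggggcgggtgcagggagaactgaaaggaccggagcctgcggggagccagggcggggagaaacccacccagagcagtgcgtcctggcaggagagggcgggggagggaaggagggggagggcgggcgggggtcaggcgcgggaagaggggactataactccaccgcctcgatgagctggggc
Dll3: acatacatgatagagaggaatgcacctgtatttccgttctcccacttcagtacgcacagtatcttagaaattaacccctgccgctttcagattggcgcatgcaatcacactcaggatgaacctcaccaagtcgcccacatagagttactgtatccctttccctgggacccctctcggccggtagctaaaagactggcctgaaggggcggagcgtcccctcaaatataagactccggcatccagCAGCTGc
Hes5: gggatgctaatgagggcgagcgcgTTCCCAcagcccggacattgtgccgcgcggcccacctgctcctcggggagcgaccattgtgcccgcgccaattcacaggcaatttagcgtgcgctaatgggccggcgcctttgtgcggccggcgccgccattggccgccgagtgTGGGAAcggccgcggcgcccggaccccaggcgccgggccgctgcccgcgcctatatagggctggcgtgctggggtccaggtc

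Dll3 had a CAGCTG whose first base is 7 bases before the start, Hes5 had the Rbpj core on each strand, first bases 226 and 82 before the start, and the Pou4f2 window had neither E-box. Motifs were searched on both strands in all 27018 promoters of this length, of which 12.8% held CAGCTG, 14.5% CAGATG and 21.5% TGGGAA. Of 24 matched Notch pathway promoters 6 held CAGCTG and 5 held TGGGAA. Of 7 matched promoters of neuron genes called higher, 1 held CAGCTG and 1 held CAGATG. A match is a description of letters and not a measured binding site, and no match says only that these letters are not in this window.

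Precursors of other early neurons gave 1 call among 13 listed genes. Onecut2, a factor of horizontal cells and early ganglion cells, rose from 23.1 to 38.4 RPKM (heterozygote 41.9), and its 2 transcripts had alike log2 ratios of 0.71 and 0.78, of which the first was called. Tfap2b, of horizontal and amacrine cells, was at 0.775 and 2.12 RPKM and just missed (the authors' deposited table gave p = 0.0006 and q = 0.0676). Tfap2b was listed only through its knock-in value and so had to be higher. The photoreceptor precursor genes Otx2 and Crx were at 42.8 and 50.3 RPKM and at 12.9 and 15.7 RPKM. Foxn4 and Prox1, of amacrine and horizontal precursors, were at 61.7 and 51.2 RPKM and at 17.9 and 14.7 RPKM.

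Gad2, which encodes a GABA-synthesizing enzyme, was the one retinal neuron gene called lower. It fell 3.40-fold, from 9.72 to 2.86 RPKM, and its heterozygote level was 16.0 RPKM, beside 9.90 RPKM for the mutant in that table. The Dlx genes, homeobox genes of GABAergic neurons that ganglion cells also use, did not go with it. Dlx1 was at 14.6 and 19.6 RPKM and Dlx2 at 13.0 and 18.4 RPKM (the authors' deposited table gave p = 0.0012 and q = 0.102 for Dlx2). Gad1, Slc32a1, Dlx5, Dlx6, Sp9, Lhx6 and Lhx8 were among those not listed, and 4 of 13 genes of the list could be compared.

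Genes of progenitor identity and of cell cycle progression held no calls, beside 1.67% called over all genes. At that share lists of this length would hold few calls or none. None of the 27 progenitor genes was called, with a median log2 ratio of -0.07, and Pax6 was at 333 and 291 RPKM, Rax at 64.6 and 77.3 RPKM, and Ccnd1 at 478 and 510 RPKM. The Id genes, which hold bHLH factors inactive, were at 104 and 83.7 RPKM for Id1 and at 155 and 124 RPKM for Id3. None of 40 listed cell cycle genes was called, with a median of -0.03. Gmnn, an inhibitor of replication licensing, was at 70.3 and 50.3 RPKM, and the cell cycle factor E2f1 at 17.3 and 23.2 RPKM. Of 16 genes of cell cycle exit, Tob1, an antiproliferative gene, fell from 26.5 to 18.3 RPKM (the authors' deposited table gave q = 0.0463). The cyclin Ccnd2 had summed levels of 11.7 and 73.1 RPKM, but this rested on a transcript listed at 0 and 62.7 RPKM that did not pass (the authors' deposited table gave p = 0.209).

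The list medians of Hedgehog, retinoic acid and patterning genes were near 0 on the log2 scale, at -0.07, 0.06 and -0.06. Single members differed more. Ptch1, the Hedgehog receptor and a target of that pathway, was at 16.3 and 8.24 RPKM (heterozygote 18.2), but did not pass (the authors' deposited table gave p = 0.0031 and q = 0.181). Shh, Gli1 and Hhip were not listed, and none of 8 listed Hedgehog genes was called. Of 11 retinoic acid genes none was called, with Aldh1a1, the dorsal retinal enzyme, at 1052 and 1346 RPKM and the binding protein Crabp1 at 537 and 721 RPKM. Of 15 patterning genes none was called. The dorsal factor Tbx5 was at 11.4 and 8.42 RPKM, the ventral factor Vax2 at 41.8 and 50.3 RPKM, and the nasal factor Hmx1 at 36.6 and 50.7 RPKM. Gja1, a gap junction gene of the optic stalk and ciliary margin list that other eye tissues also use, rose from 7.78 to 14.9 RPKM.

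Immediate early genes, which cells switch on within minutes of a stimulus, held 9 of the lower calls. Of 31 in the list 21 were listed, 20 were lower in knock-in-labelled retinas and the 9 passed the test. Because a gene can be listed through its mutant value alone, the 16 that reached 1 RPKM in knock-in-labelled retinas are the plainer count: 15 were lower, 7 were called and the median was -0.79. The other 5 were listed only through the mutant-labelled group. Their summed level was 300.5 RPKM in mutant-labelled and 118.6 RPKM in knock-in-labelled retinas over all 21.

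Of the AP-1 genes, Fos fell from 31.8 to 0.536 RPKM and Fosb from 14.8 to 0.421 RPKM. Egr1, a zinc finger factor, fell from 31.8 to 1.03 RPKM, and Cyr61, a matricellular gene induced by serum, from 16.8 to 1.79 RPKM. Jun fell from 26.3 to 12.1 RPKM and the phosphatase genes Dusp1 and Dusp6 from 31.0 to 17.9 RPKM and from 13.7 to 8.32 RPKM. Ctgf and Zfp36 were the other called members, at 5.31 and 2.69 RPKM and at 8.91 and 4.88 RPKM (the authors' deposited table gave q = 0.0182 for Zfp36). The heterozygote levels were 13.7 RPKM for Fos, 13.2 RPKM for Fosb and 27.8 RPKM for Egr1. The mutant and heterozygote groups were both far above the knock-in level for Fos, Fosb and Egr1, across tables normalized separately.

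The list was not uniform. Jund, Fosl1 and Maff were at 5.10 and 5.00 RPKM, at 3.09 and 3.03 RPKM and at 2.00 and 2.02 RPKM. Egr2 went from 24.4 to 0.817 RPKM over 4 transcripts without passing (the authors' deposited table gave p = 0.133). The part that handling of the dissected tissue or the order of collection played was not tested, and no label records either.

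Heat shock genes were divided. The inducible Hspa1a and Hspa1b, which are near-identical copies whose reads cannot be well separated, fell to 0.835 RPKM from 3.74 and to 0.905 RPKM from 3.77. Both were listed only through their mutant value and so had to be lower. The chaperone genes Dnaja1 and Hspa5 rose from 370 to 543 RPKM and from 242 to 366 RPKM (the authors' deposited table gave q = 0.0463 and 0.032). The constitutive Hspa8 and Hsp90ab1 were at 2245 and 2422 RPKM and at 2580 and 2686 RPKM. Of the 12 listed members 10 were higher, with a median of 0.36.

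**Figure D3:**
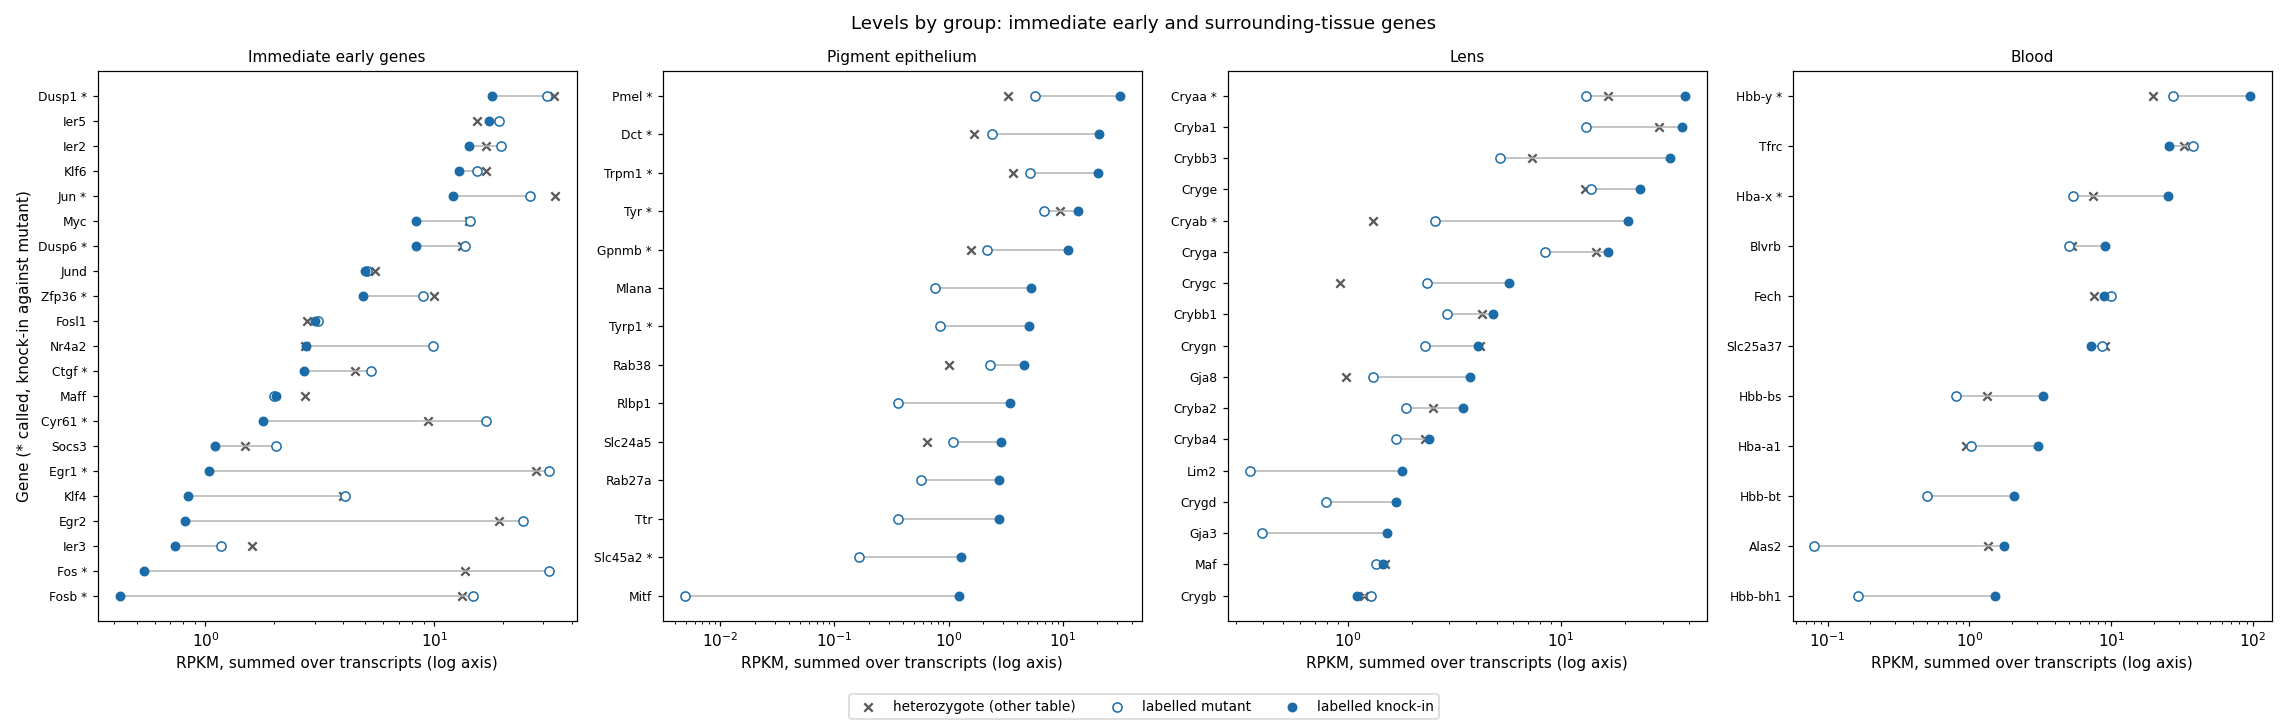
Summed RPKM (x axis, log scale) of immediate early, pigment epithelium, lens and blood genes (y axes) in the mutant (open), knock-in (filled) and heterozygote (cross) groups, with a star for a called gene. Genes with no cross are not in the heterozygote table, and Foxe3, listed at 0 in the mutant, is not drawn. Fos, Fosb, Egr1 and Egr2 are near or below 1 RPKM in the knock-in group, and Pmel, Dct, Cryab and Hbb-y are near or above 20 RPKM there.

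Pigment epithelium genes were higher in knock-in-labelled retinas. Of 23 in the list 14 were listed, all higher, and 7 of them reached 1 RPKM only in that group and so had to be higher to be listed. Of the 7 that also reached 1 RPKM in mutant-labelled retinas, all were higher, 5 were called, and the median log2 ratio was 1.97. The melanosome matrix gene Pmel rose from 5.72 to 31.5 RPKM (heterozygote 3.30), the melanin enzyme genes Dct and Tyr from 2.40 to 20.9 RPKM and from 6.82 to 13.6 RPKM, and the melanocyte channel gene Trpm1 from 5.15 to 20.1 RPKM. Tyrp1 rose from 0.841 to 5.09 RPKM, and Gpnmb and Slc45a2 were the remaining calls. Mitf, the master regulator of pigment cells, was at 0.00487 and 1.24 RPKM and did not pass. Rpe65, Best1, Lrat, Oca2, Mlph, Gpr143, Tfec, Bace2 and Trf were not listed.

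Promoter windows of the melanin enzyme genes are shown because these genes moved together and a regulator of theirs is known. They are again the 250 bases before the RefSeq start site on GRCm38.p6: Tyr at chr7:87493513-87493762 (minus strand), Tyrp1 at chr4:80833963-80834212 (plus strand) and Dct at chr14:118052247-118052496 (minus strand). Capitals mark CATGTG, the core of the M-box that Mitf is known to bind, or its reverse complement.

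Tyr: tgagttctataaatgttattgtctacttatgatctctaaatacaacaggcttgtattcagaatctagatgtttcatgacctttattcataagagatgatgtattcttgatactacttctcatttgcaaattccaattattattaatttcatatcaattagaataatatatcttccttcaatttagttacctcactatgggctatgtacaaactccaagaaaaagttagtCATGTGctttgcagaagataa
Tyrp1: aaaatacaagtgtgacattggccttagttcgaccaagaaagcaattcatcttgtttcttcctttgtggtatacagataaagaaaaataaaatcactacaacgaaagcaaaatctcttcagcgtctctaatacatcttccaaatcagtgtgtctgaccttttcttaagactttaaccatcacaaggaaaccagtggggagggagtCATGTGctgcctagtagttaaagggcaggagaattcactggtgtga
Dct: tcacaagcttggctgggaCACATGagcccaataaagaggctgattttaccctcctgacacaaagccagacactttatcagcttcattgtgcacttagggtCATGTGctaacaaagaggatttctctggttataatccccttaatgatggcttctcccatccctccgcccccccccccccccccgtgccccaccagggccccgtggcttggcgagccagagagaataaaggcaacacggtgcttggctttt

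The first base of the motif was 21 bases before the start in Tyr, 46 in Tyrp1, and 232 and 150 in Dct. Of the 9 listed pigment epithelium genes with a promoter entry 6 held CATGTG on either strand, beside 12.2% of all promoters. CATGTG overlaps neither of the E-boxes searched above, which differ from it in their central letters. The motifs were chosen with these genes already known to be called.

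Lens genes, which belong to the tissue that fills the optic cup, were higher too. Of 28, 18 were listed, 17 were higher and 3 were called. Of the 14 that reached 1 RPKM in mutant-labelled retinas 13 were higher and 2 were called, with a median log2 ratio of 0.93. The crystallin genes Cryaa and Cryab rose from 13.2 to 38.1 RPKM and from 2.58 to 20.7 RPKM, and Foxe3, a lens epithelium factor, was listed at 0 and 1.05 RPKM. Cryga and Cryge, at 8.46 and 16.6 RPKM and at 13.9 and 23.4 RPKM, did not pass, and the gamma crystallin genes are close copies. Mip, Pitx3, Bfsp1 and Bfsp2, further lens genes, were not listed.

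Of 22 blood genes 11 were listed and 7 reached 1 RPKM in mutant-labelled retinas, of which 4 were higher. The embryonic globin genes Hbb-y and Hba-x rose from 27.1 to 94.7 RPKM and from 5.40 to 25.01 RPKM (the authors' deposited table gave q = 0.0413 for Hba-x). The iron genes Tfrc, Fech and Slc25a37, which dividing retina also uses, were lower without passing, and the red cell factors Gata1 and Klf1 were not listed. Of 22 mesenchyme genes 11 were listed, 10 of them higher, and of the 7 that reached 1 RPKM in mutant-labelled retinas 6 were higher, with a median log2 ratio of 0.21. Lum, a collagen-binding proteoglycan, rose from 1.22 to 4.06 RPKM and the growth factor receptor gene Pdgfra, listed only through its knock-in value, from 0.449 to 1.54 RPKM. The most abundant member, Col1a2, was at 12.6 and 14.5 RPKM, and the one lower member, Fbn1, at 6.02 and 5.96 RPKM. Foxc1, Foxc2, Prrx1, Prrx2 and Col1a1 were not listed.

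The other tissues left fewer traces. Of 14 endothelial genes Kdr and Egfl7 were listed, at 20.3 and 16.2 RPKM and at 9.20 and 7.79 RPKM, and Pecam1 and Cdh5 were not. Of 14 macrophage genes Cd68 alone was listed. Of the ectoderm list Krt18, a keratin, rose from 2.28 to 8.06 RPKM. Among sex-linked genes, Xist was at 496 and 174 RPKM, and Uty, Ddx3y, Eif2s3y and Kdm5d were at or near 0 in mutant-labelled retinas and at 9.44, 8.81, 28.6 and 19.3 RPKM in the other. None of them was called, but the sex makeup of the groups and the knock-in label cannot be told apart.

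**Figure D4:**
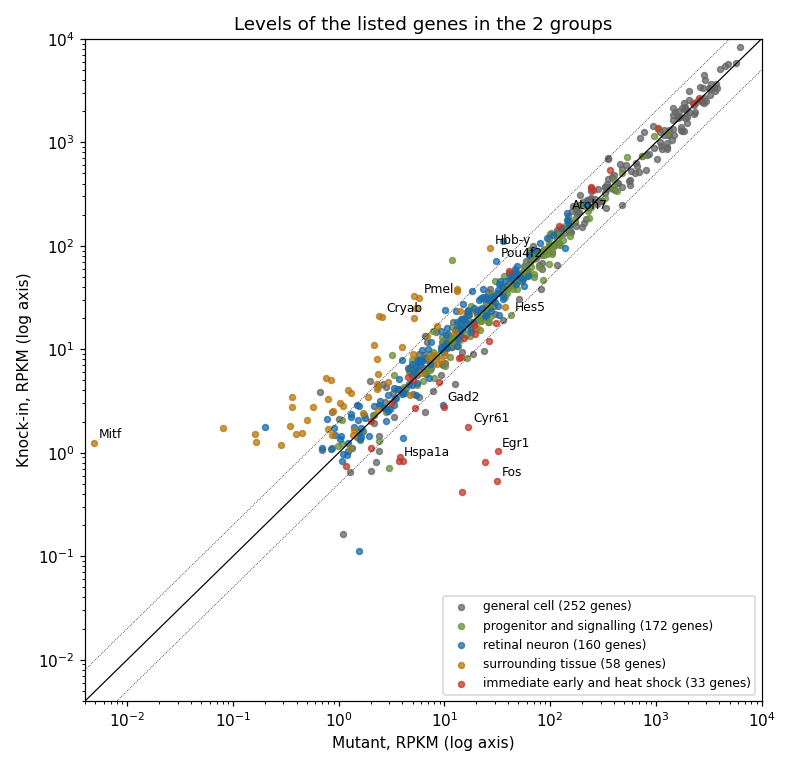
Summed RPKM of the genes in the lists in the mutant (x axis) and knock-in (y axis) groups, both on log axes, coloured by class. The solid line marks equal levels and the dotted lines a 2-fold difference, and genes at 0 in either group, as well as sex-linked genes, are not drawn. Retinal neuron genes lie close to the line (median log2 ratio 0.22), immediate early genes such as Fos reach 0.536 RPKM on the y axis, and Mitf is at 0.00487 RPKM on the x axis.

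Metabolic and protein-folding genes held some of the most abundant calls. Ldha and Pgam1, enzymes of glycolysis, rose from 355 to 689 RPKM and from 350 to 702 RPKM. Of 26 glycolysis genes 17 were higher and these were the calls, while Gapdh, another enzyme of the same path, was at 1740 and 1309 RPKM. Its transcript with the smallest p was at 1036 and 449 RPKM (the authors' deposited table gave q = 0.0807). Of 20 listed genes of the endoplasmic reticulum 14 were higher. Among them Pdia6, a disulfide isomerase, rose from 69.1 to 98.8 RPKM (the authors' deposited table gave q = 0.0363), as did Hspa5, given above. Canx was called through a transcript at 105 and 171 RPKM, while its summed level was 234 and 232 RPKM.

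Of 49 replication-dependent histone genes 5 were called lower and none higher. They were Hist1h4d, from 479 to 248 RPKM, Hist1h2ak, from 81.2 to 38.3 RPKM, Hist1h2bl, from 116 to 65.6 RPKM, Hist1h1a, from 50.3 to 30.5 RPKM, and Hist1h2bh, from 23.9 to 9.62 RPKM. Members of this family are near-identical and their mRNAs mostly lack a poly(A) tail, so single values are uncertain, and Hist1h2bm was at 189 and 214 RPKM. Ribosomal protein genes went both ways. Of 77, Rplp2, Rpl22 and Rps27a were called higher and Rps7 and Rpl39 lower, with a list median of -0.02. Of 81 respiratory chain genes Cox8a was called, from 341 to 233 RPKM (the authors' deposited table gave q = 0.0363), with a median of 0.04.

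In all, 142 called genes were in no list, of which 15 are predicted or small RNA genes. Of the others, 78 rose and 33 fell with a summed level that followed the call by at least 1.2-fold. The largest rises of genes with low mutant levels were of Pianp, a neuronal membrane protein, from 0.456 to 5.74 RPKM, Dennd1c, from 0.513 to 3.30 RPKM, Col8a1, a short-chain collagen, from 0.492 to 2.71 RPKM, and Dkk2, a Wnt modulator, from 0.404 to 1.88 RPKM. Secreted or matrix proteins among the named rises were Enpp2, from 0.893 to 3.10 RPKM, Clu, from 3.66 to 11.6 RPKM, Spon1, from 1.05 to 3.20 RPKM, and the peptide hormone gene Cck, from 2.35 to 7.74 RPKM. Pianp, Dennd1c, Col8a1, Dkk2 and Enpp2 were under 1 RPKM in mutant-labelled retinas. They were listed only through their knock-in value and so had to be higher.

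Abundant rises outside the lists were Cwc22, a splicing factor, from 29.5 to 188 RPKM, and Glo1, a glyoxalase, from 80.3 to 229 RPKM. Both genes are known to vary in copy number among mice, and CD-1 is an outbred stock. Their heterozygote levels, 23.5 and 68.3 RPKM, were close to the mutant's. Whether copy number differed between these embryos was not tested. The Cwc22 sum was spread over 8 transcripts, of which the called one was at 15.8 and 62.8 RPKM.

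Of the falls outside the lists, Rnaset2b, which has a near-identical copy, was listed at 1.64 RPKM and at 0. The predicted gene 1500004A13Rik fell from 25.1 to 1.32 RPKM. Tmem60, a membrane protein, fell from 72.3 to 29.3 RPKM, Akr1e1, an aldo-keto reductase, from 43.8 to 21.7 RPKM, and Dynlt1f, a dynein light chain with near-identical copies, from 22.4 to 10.2 RPKM. Filip1l fell from 8.65 to 4.10 RPKM, the kinase gene Mapk12 from 11.2 to 5.69 RPKM, and Tert, the telomerase catalytic subunit, from 2.95 to 1.53 RPKM (the authors' deposited table gave q = 0.0254 for Filip1l and Tert). Racgap1, which cytokinesis needs, had the largest finite summed difference of the other falls named outside the lists, 459 and 63.5 RPKM, but it rested on an uncalled transcript at 393 and 0 RPKM. The called Racgap1 transcript fell from 24.9 to 8.09 RPKM and another was at 41.1 and 36.9 RPKM.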

How the data were processed

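RNA-seq of E12.5 retina was used, 3 mutant and 3 knock-in samples, with levels of the 3 heterozygote samples from a second table. Per the submitters' processing notes Bowtie2, Cufflinks and Cuffdiff were used, with mm10 as the genome. Tool versions: not given in the sources used here. As deposited by the authors, RPKM has one value per transcript and group, with replicates pooled, so depth and spread per sample are unknown. The authors also deposited p-values and q-values, and each q equalled the Benjamini-Hochberg adjustment of p over all rows to within 5.26e-07.

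RPKM was summed over each gene's transcripts, keeping sums of 1 or more, and log2 ratios were taken without a pseudocount (Python 3.11.15, pandas 2.3.3, numpy 2.4.6, scipy 1.17.1; figures with matplotlib 3.10.9). The summing and adjustment were tested on simulated data. Calls are the authors' (q of 0.05 or less). No test was run on lists. Members and the 34 lists were chosen with earlier results of these data known. A gene in several classes was counted once, surrounding tissue first.

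Named genes were Neurog2, called list members, the 3 largest ratios and 3 highest levels of each list, the 12 largest rises and 12 largest falls outside lists that followed the call by 1.2-fold, with a finite ratio and no predicted or small RNA genes, and retinal neuron members by role. Outside this rule, Six6, Pax6 and Rax are tissue markers, and Cryga, Cryge, Fbn1, Fech, Slc25a37, Dll1, Hes1, Hey1, E2f1, Gmnn, Id1, Id3, Vax2, Egr2, Rnaset2b, 1500004A13Rik, Fosl1, Jund, Maff, Eif2s3y and Kdm5d were chosen after values were seen. Some items are not reported here. Alternatives were other thresholds, floors, pseudocounts, centring and the most abundant transcript. Promoters are RefSeq's (GRCm38.p6). Coordinates are the authors' loci, counted from base 1.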

Additional observations from a re-analysis of the deposited data

How the results depend on the processing

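No paired analysis was possible because the table holds one pooled value per group, so neither a replicate block nor leaving out a sample could be run. At q of 0.10 or less, 196 transcripts in place of 125 and 193 genes in place of 124 were called higher. Lower calls grew from 76 to 114 at that threshold, for transcripts and genes alike. Under every other setting the counts of calls stayed within 1.5 times of their main values. Without the surrounding-tissue, immediate early, heat shock and sex-linked lists 107 genes were higher and 65 lower. Taking the most abundant transcript turned the list medians of ion channels (-0.11), Hedgehog (0.037) and retinoic acid genes (-0.065), axon guidance (0.004) and retinal progenitors (0.0018), and the ratio of Canx (0.70). Keeping single-transcript genes, chosen after seeing the data, turned those of ion channels (-0.20), axon guidance (0.085), Hedgehog (0.028) and patterning genes (0.27). At 5 RPKM or more the ion channel median was 0.38. The turned medians had main values near 0, and the cause was not tested. Counted by setting, 23 list medians moved by more than 0.1 without turning. At 5 RPKM or more, blood moved from 1.80 to 0.34 and mesenchyme from 0.80 to 0.20, while lens and ion channels rose. With a pseudocount 7 shrank, among them pigment epithelium from 2.53 to 1.59. By the most abundant transcript, synaptic genes moved from 0.36 to 0.16 and Neurog2 targets from 0.33 to 0.22. Blood and p53 pathway genes also shrank there, while sex-linked genes rose. Of 81 called named genes with a finite ratio, 80 kept their direction in every setting run. Low depth cannot be judged without counts.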
